A study of Sus scrofa with 12 samples.

Results

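The uninjured jejunal mucosa of neonatal pigs, aged 2 wk, was compared with that of juvenile pigs, aged 6 wk. The comparison used 6 of the 12 samples of the study, which were chosen by their labels, with 3 libraries from neonates (replicates A, C and D) and 3 from juveniles (replicates A, B and C). All animals were Yorkshire cross pigs. In each anesthetized pig, closed loops of distal jejunum were made, and the control mucosa came from loops that were not made ischemic, so both control groups shared the anesthesia, the surgery and the nearness of ischemic tissue. The other 6 samples, 3 at each age, came from loops kept ischemic for 30 min and are used here only side by side with the control samples. Scrapings of the mucosa were frozen and their total RNA was sequenced, and the deposited values are read counts per gene. What the pigs ate, whether they were weaned and the sex of each animal are not given in the sources used here, so these cannot be told apart from age. The study counts each library of a group as a separate pig, so p-values measure the spread between animals, while which control and ischemic loops came from the same pig is not given in the sources used here.

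The jejunum is where most nutrients are digested and absorbed. Enterocytes on the villi carry enzymes on their brush border that finish the digestion of sugars and peptides, and transporters that take up the products. In suckling mammals the enterocyte also takes up whole proteins by endocytosis and digests them in lysosomes, and lactase splits milk sugar. Around weaning, sucrase-isomaltase and maltase-glucoamylase take over the digestion of sucrose and starch. Over the same weeks lymphocytes settle in the epithelium, and B cells gather in the lymphoid tissue of the wall.

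Depth was uneven. Counts on genes summed to 12570140, 17694393 and 1490898 in juvenile replicates A, B and C, and 9913462, 6497353 and 2045483 in neonatal replicates A, C and D. The most shallow library at each age, juvenile C and neonatal D, stood apart from the rest. Reads with more than 1 alignment were 46.4% and 39.8% of these libraries, and 6.86% to 11% of the other 4 from control mucosa. HEPACAM, a cell adhesion gene of glia and liver that was looked at because it was the most abundant gene of juvenile C, was at 205, 76.0 and 60995 scaled CPM in juvenile A, B and C and at 75.6, 150 and 16751 in neonatal A, C and D. It was thus high in the same 2 libraries and no others. Without both libraries some calls were lost and lists shrank, and such values are given below for the genes and lists described in most detail. Among genes named further on, the adjusted p without both was 0.0603 for DAB2, 0.0534 for CD79A, 0.0566 for LGMN, 0.13 for SMOC2, 0.104 for PECAM1, 0.0583 for TOP2A, 0.101 for CDC6, 0.0567 for BUB1B, 0.124 for PAX5 and 0.135 for MS4A1. Scaled CPM are counts relative to the library total (CPM), corrected by trimmed mean of M values (TMM) factors. A count of 3 was taken as the floor of detection and corresponded to 0.170 to 2.01 CPM in the 6 libraries, and it covers counting error only.

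The tissue label was checked against markers of intestinal epithelium. VIL1, a brush border actin bundler, was at 2658, 1873 and 1846 scaled CPM in juvenile A, B and C and at 278, 352 and 488 in neonatal A, C and D. KRT20, a keratin of mature enterocytes, was at 4946, 4477 and 5108 in juveniles and 270, 530 and 684 in neonates, and the epithelial adhesion gene EPCAM at 3748, 2286 and 1390 against 742, 812 and 608. All 6 libraries held abundant epithelial RNA, and for these 3 genes every neonatal library was below every juvenile library.

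Of the 23909 genes in the table, 14191 reached more than 1 CPM in 2 or more of all 12 libraries and were tested with edgeR's quasi-likelihood test. At a Benjamini-Hochberg adjusted p under 0.05, 2774 genes were called (19.5% of those tested), of which 998 were higher in neonates (7.03%) and 1776 were lower (12.5%). The lowest and highest libraries of the 2 ages did not overlap for 5472 genes (38.6%). Log2 fold changes are given for neonatal relative to juvenile mucosa, and their median over all genes tested was 0.03. Among the called genes, 366 of the higher and 494 of the lower differed more than 4-fold, and 60 and 38 more than 16-fold. The number of calls fell to 1579 when both shallow libraries were left out, with 365 higher and 1214 lower, and to 1232 without juvenile A, with 261 higher and 971 lower. It was 3272 by DESeq2, with 1511 higher and 1761 lower.

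The plot of gene lists by direction shows where the calls lay. Large shares of genes lower in neonates were seen in the lists for sugar digestion and uptake, bile acids, epithelial identity and the interferon responses, and large shares higher in the cell cycle, red blood cell, matrix and B cell lists.

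**Figure D1:**
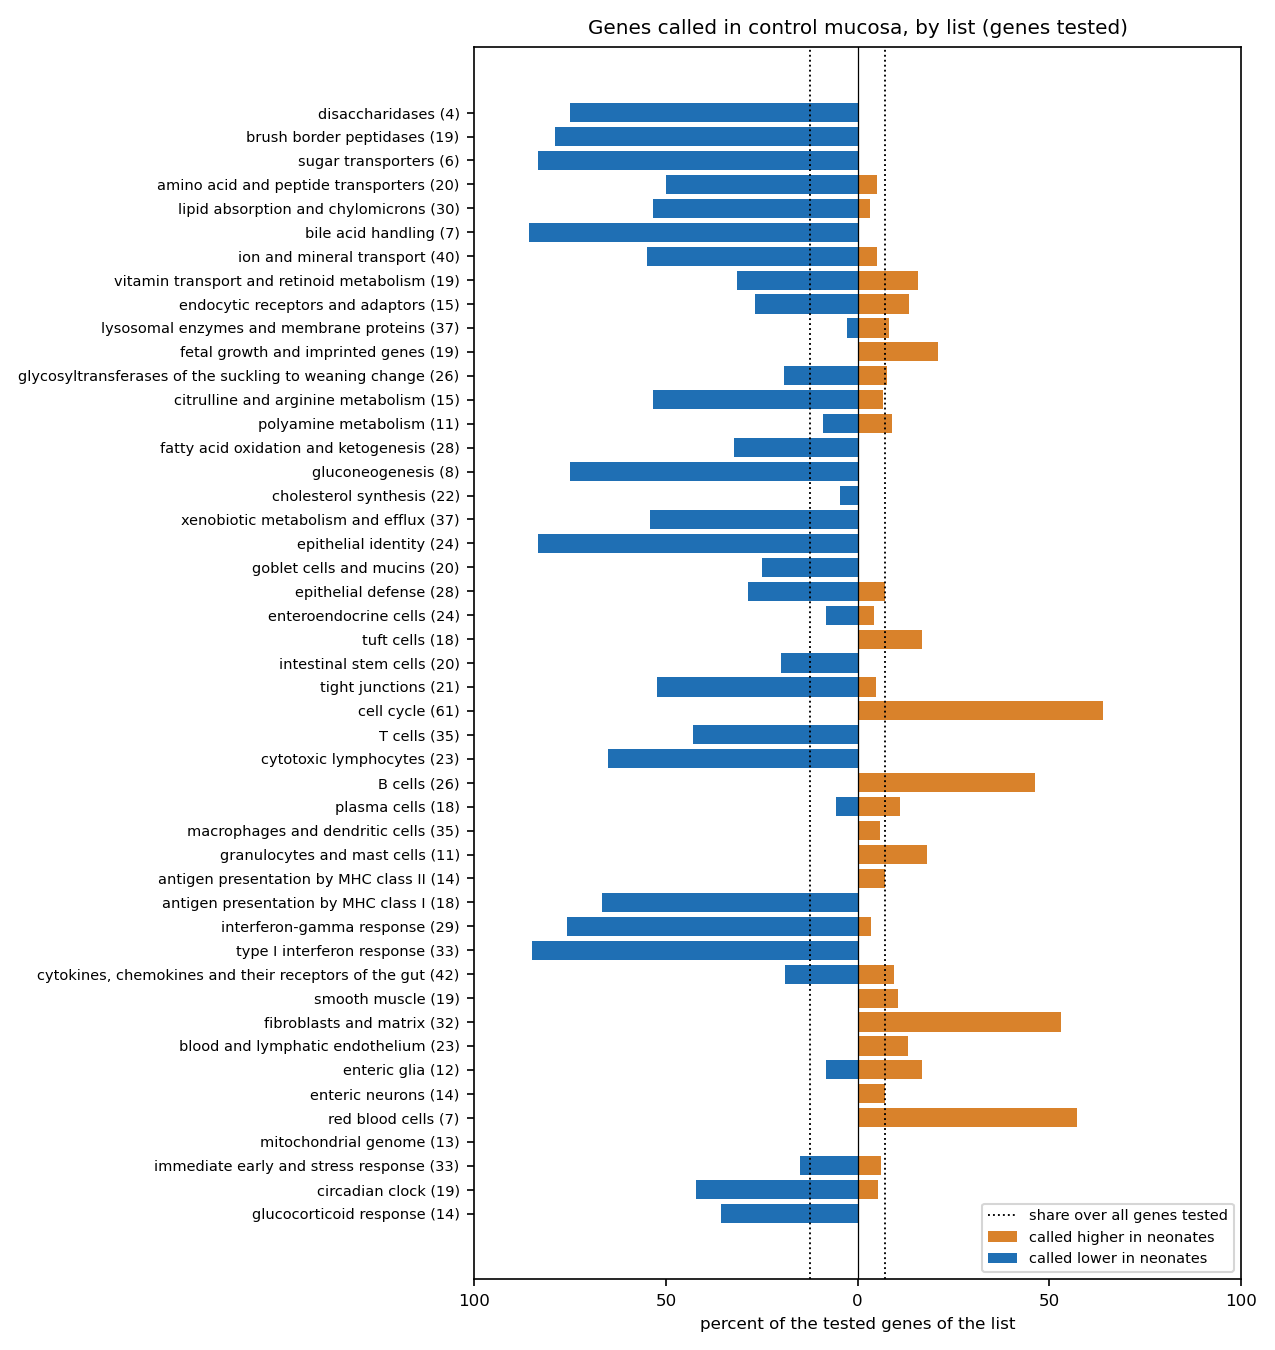
Genes called in control mucosa by gene list. Bars give the percent of each list's tested genes (their number in parentheses) called lower (left, blue) or higher (right, orange) in neonates by edgeR at an adjusted p under 0.05, and the dotted lines mark the shares over all genes tested, 12.5% lower and 7.03% higher. Of the cell cycle list 39 of 61 genes were higher and 0 lower, and of the type I interferon list 28 of 33 were lower and 0 higher.

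Epithelial markers as a group were lower in neonatal mucosa. Of 24 tested genes of epithelial identity, 20 were called lower and 0 higher, with a median log2 fold change of -1.85 beside 0.03 over all genes. Summed over the list, the level was 26020, 19955 and 17609 scaled CPM in juvenile A, B and C and 3666, 4612 and 4574 in neonatal A, C and D, with KRT20 the most abundant gene. No library of one age reached the range of the other. In bulk tissue, fewer cells of a type and less RNA per cell cannot be told apart, and this bears on every list below. KRT20 differed by -3.29 on the log2 scale (SE 0.42, adjusted p = 0.00113 by edgeR) and VIL1 by -2.51 (SE 0.35, adjusted p = 0.00155). EPCAM differed by less, -1.76 (SE 0.38, adjusted p = 0.0126), and without juvenile A its adjusted p was 0.0532.

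Because the epithelial markers moved with age, the genes of the enterocyte were also compared after the libraries had been scaled so that the mean log2 CPM of the 24 epithelial identity genes was equal in each. This scaling was chosen after seeing the data. It moved the median log2 fold change of all genes to 1.94 and called 81.6% of them higher in neonates and 1.06% lower. It is therefore used mainly for lists of epithelial genes, and for some other lists only side by side with the TMM values. Values from it are changes relative to epithelial markers. A gene lower under both scalings was lower than the epithelial markers as well as lower in the tissue.

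Sugar digestion differed widely between the ages. Of the 4 tested disaccharidase genes, 3 were called lower in neonates and 0 higher, with a median log2 fold change of -2.77. The trehalase gene TREH was below the filter, with at most 4 counts in any control library. MGAM (chr18:7871529-7997137), which encodes maltase-glucoamylase, was at 4292, 3414 and 2178 scaled CPM in juvenile A, B and C and at 42.7, 49.8 and 58.2 in neonatal A, C and D. It was 65.1-fold lower in neonates (log2 fold change -6.02, SE 0.41, adjusted p = 0.000140 by edgeR), and 1 of the genes with the smallest p values. SI (chr13:104296281-104379558), the sucrase-isomaltase gene, was at 12159, 8035 and 4284 in juveniles and 532, 691 and 466 in neonates, a 14.3-fold difference (log2 fold change -3.84, SE 0.46, adjusted p = 0.000916). MGAM2, a neighbouring copy whose reads may be shared in part with MGAM, was lower by a smaller amount, at -1.70 (SE 0.30, adjusted p = 0.00453), and not relative to the epithelial markers, at 0.21.

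LCT (chr15:16016076-16071620), the lactase gene, had the opposite direction. It was at 0.786, 28.6 and 1.57 scaled CPM in juvenile A, B and C and at 45.5, 45.7 and 32.4 in neonatal A, C and D. The 3 neonatal libraries were alike and all above the juvenile libraries, but juvenile B was close to them while juvenile A and C were low. With all 6 libraries LCT was therefore not called (log2 fold change 1.87, SE 1.12, adjusted p = 0.296). Without juvenile B it was called higher in neonates, with a log2 fold change of 5.46 and an adjusted p of 0.00145 by edgeR. In that fit the value of juvenile C was under its floor of 2.36 scaled CPM, so the size of the fold is uncertain. Relative to the epithelial markers LCT was 3.75 higher on the log2 scale (adjusted p = 0.0464), while SI was 1.91 lower and MGAM 4.11 lower (log2 fold changes -1.91 and -4.11). The difference in SI and MGAM thus exceeded that of the epithelial markers, and the plot of digestive genes by library shows each value.

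**Figure D2:**
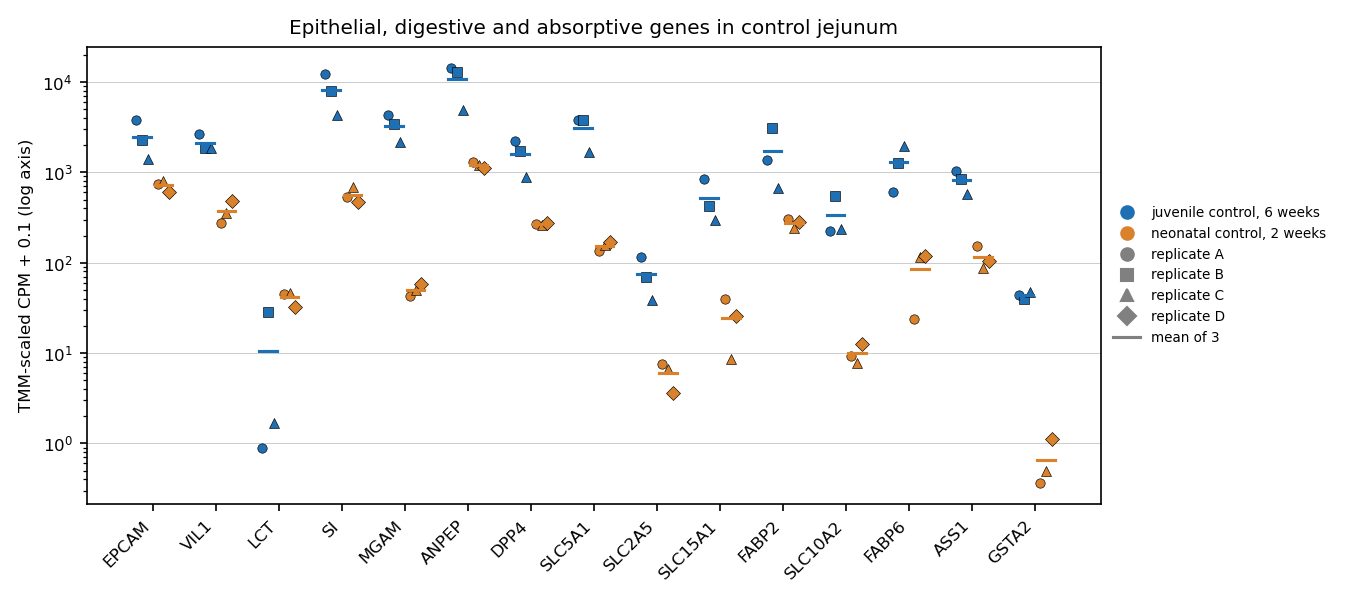
Levels of epithelial, digestive, transport and metabolic genes in each control library. The vertical axis gives TMM-scaled CPM plus 0.1 on a log10 axis, each point is 1 library and horizontal bars mark group means. Each neonatal value of MGAM, from 42.7 to 58.2, is far below each juvenile value, from 2178 to 4292, while for LCT 1 juvenile library, at 28.6, lies just under the neonatal libraries.

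The peptidases of the brush border, which cut peptides into amino acids and short peptides, followed the epithelial markers. Of 19 tested, 15 were lower and 0 higher, with a median of -1.95. ANPEP, aminopeptidase N and the most abundant gene of the list, was at 14369, 12834 and 4914 scaled CPM in juveniles and at 1308, 1203 and 1114 in neonates (log2 fold change -3.12, SE 0.45, adjusted p = 0.00188). MEP1A, a meprin subunit, was 9.60-fold lower and ACE, angiotensin-converting enzyme, 9.01-fold lower. DPP4, a dipeptidyl peptidase, was lower by 5.92-fold. Relative to the epithelial markers the median of the list was 0.03, with 3 genes higher and 5 lower: ANPEP remained lower at -1.18 (adjusted p = 0.0278), and for DPP4 the difference of -0.63 did not pass (adjusted p = 0.138). TMPRSS15, which encodes enteropeptidase, the activator of trypsinogen, was low in all libraries, at 1.47, 1.62 and 0.786 scaled CPM in juveniles and 0.618, 0.134 and 0.506 in neonates, and was not called.

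Sugar transporters were lower in neonates, some of them beyond the epithelial markers. Of 6 tested, 5 were lower and 0 higher, with a median of -3.24, and 3 remained lower relative to the epithelial markers. SLC5A1 (chr14:48566400-48704145), the sodium-glucose cotransporter of the brush border, was at 3828, 3819 and 1663 scaled CPM in juveniles and 133, 158 and 171 in neonates. It was 19.9-fold lower (log2 fold change -4.31, SE 0.41, adjusted p = 0.000435) and -2.40 relative to the epithelial markers. The fructose transporter SLC2A5 was at 115, 68.9 and 38.5 against 7.50, 6.55 and 3.55, and the basolateral glucose transporter SLC2A2 at 199, 175 and 99.1 against 30.6, 9.35 and 23.3. Relative to the epithelial markers the difference in SLC2A2 of -0.89 did not pass (adjusted p = 0.0937 by edgeR). SLC2A7, a further member of the glucose transporter family, was at 21.0, 25.1 and 7.08 in juveniles and 0.265, 0.534 and 1.52 in neonates, of which replicates A and D were at the floor of 3 counts in their libraries. In all 4, the lowest juvenile library was above the highest neonatal library, while 38.6% of all genes tested did not overlap.

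Among transporters of amino acids and peptides, 10 of 20 tested genes were lower in neonates and 1 was higher, SLC7A8. The median was -1.08, and 0.88 relative to the epithelial markers, so the direction of the list as a whole depended on the scaling. SLC15A1 (chr11:67652808-67690457), the peptide transporter PEPT1, was at 841, 429 and 299 scaled CPM in juveniles and 39.9, 8.42 and 25.3 in neonates. It was 21.0-fold lower (log2 fold change -4.39, SE 0.63, adjusted p = 0.00253) and stayed lower relative to the epithelial markers, at -2.35. SLC1A1, an importer of glutamate and aspartate, was 12.5-fold lower, at 2492, 1833 and 1048 against 123, 160 and 140. SLC7A9 and SLC3A1, the light and heavy subunits of the transporter of cystine and basic amino acids, were lower by nearly the same amount, at -2.79 (SE 0.26) and -2.71 (SE 0.28). SLC6A19, an importer of neutral amino acids, was 4.27-fold lower.

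Genes of fat absorption were more mixed. Of 30 tested, 16 were lower in neonates and 1, SCARB1, was higher, with a median of -1.55, or 0.37 relative to the epithelial markers. FABP2, the intestinal fatty acid binding protein, was at 1365, 3097 and 679 scaled CPM in juveniles and 304, 245 and 285 in neonates (log2 fold change -2.60, SE 0.49, adjusted p = 0.00651). Its log2 fold change was -1.87 without juvenile B. The genes of the apolipoproteins of chylomicrons were not called by edgeR: APOB was at 8580, 10653 and 3173 against 4038, 1567 and 2700, where the ages overlapped, and APOA4 was at 389, 1875 and 382 against 408, 114 and 335. APOB passed as lower by DESeq2 (adjusted p = 0.023), in 1 fit of all 12 samples (0.0273) and without juvenile C (0.0307), and APOA4 by DESeq2 alone (0.0464). ABCG5 and ABCG8, both subunits of the sterol exporter and neighbours on chromosome 3, were 10.8-fold and 8.24-fold lower. Relative to the epithelial markers 8 genes of the list were higher and 4 lower, and FABP2 at -0.67 was not called (adjusted p = 0.207).

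Bile acid genes were among the most different. Of 7 tested, 6 were lower in neonates and 0 higher, with a median of -3.44. SLC10A2 (chr11:71328801-71348779), the sodium-dependent importer of bile acids, was at 227, 554 and 234 scaled CPM in juveniles and 9.27, 7.75 and 12.7 in neonates. It was 34.7-fold lower (log2 fold change -5.12, SE 0.45, adjusted p = 0.000410), and -3.21 relative to the epithelial markers. FABP6, the bile acid binding protein of the cytosol, was at 610, 1277 and 1982 against 23.5, 116 and 118 (log2 fold change -3.94, SE 0.71, adjusted p = 0.00720). SLC51A, a subunit of the basolateral exporter, was 10.8-fold lower. FGF19, the hormone with which the gut signals bile acid uptake to the liver, was at 15.7, 25.9 and 3.15 in juveniles and 1.15, 0.534 and 3.04 in neonates (adjusted p = 0.0116), with juvenile C and neonatal D nearly equal, and it no longer passed when neonatal C was left out (adjusted p = 0.0509). These genes are best known from the ileum, and where along the distal jejunum each loop lay cannot be told apart from age.

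In ion and mineral transport, 22 of 40 tested genes were lower in neonates and 2 were higher, with a median of -1.42, or 0.51 relative to the epithelial markers. The 2 higher genes were SLC40A1 and AQP10. SLC40A1 (chr15:94140635-94161793), ferroportin and the exporter of iron from cells, was at 16.3, 38.2 and 20.4 scaled CPM in juveniles and 234, 177 and 341 in neonates, a 9.97-fold difference (log2 fold change 3.32, SE 0.40, adjusted p = 0.000952). AQP10, a channel for water and glycerol, had 0 counts in all 3 juvenile libraries and was at 6.71, 2.14 and 6.58 in neonates, at least 2.18-fold higher against the highest floor among the juvenile libraries. SLC39A4, a zinc importer, was 11.6-fold lower in neonates. CYP24A1, the enzyme that breaks down active vitamin D and a target of the vitamin D receptor, was at 14, 62.8 and 6.29 in juveniles, while in neonates it had counts in replicate C alone, at 0.134. All 3 neonatal libraries were under their floor, and the level was at least 18.2-fold lower against the highest of these floors. The list includes the vitamin D receptor gene VDR, which was also called lower.

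Many metabolic genes of the enterocyte were lower in neonates in the tissue, and fewer were lower relative to the epithelial markers. For citrulline and arginine metabolism 8 of 15 were lower and 1 was higher, the creatine synthesis gene GATM, with a median of -1.13, or 0.82 relative to the epithelial markers. ASS1, argininosuccinate synthase, was at 1035, 852 and 582 scaled CPM in juveniles and 153, 87.1 and 103 in neonates (log2 fold change -2.83, SE 0.34, adjusted p = 0.000952). CPS1 and OAT, enzymes of citrulline synthesis, were 2.39-fold and 2.69-fold lower in the tissue, with log2 differences of 0.67 and 0.49 relative to the epithelial markers that did not pass (adjusted p = 0.113 and 0.22). The call for CPS1 (adjusted p = 0.0272) was lost without any one library other than juvenile C (adjusted p from 0.054 to 0.119). NOS2, the inducible nitric oxide synthase, was 8.07-fold lower, at 144, 252 and 95.2 against 18.9, 18.7 and 23.3, and remained lower relative to the epithelial markers at -1.10 (adjusted p = 0.0154).

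For gluconeogenesis 6 of 8 genes were lower and 0 higher, with a median of -1.88, or 0.03 relative to the epithelial markers. The first enzyme of the pathway, PCK1, was at 252, 163 and 202 scaled CPM in juveniles and 8.30, 6.01 and 24.3 in neonates (log2 fold change -4.10, SE 0.52, adjusted p = 0.00132), and was still lower relative to the epithelial markers, at -2.17. For fatty acid oxidation and ketogenesis 9 of 28 were lower and 0 higher, with a median of -0.88, or 1.07 relative to the epithelial markers, and 5 calls were left without juvenile A, neonatal C or neonatal D, and 16 made in 1 fit of all 12 samples. PPARA, the nuclear receptor that responds to fatty acids, was 3.83-fold lower in neonates, and its target ANGPTL4 was at 82.3, 106 and 62.9 against 21.4, 27.5 and 23.8. Relative to the epithelial markers these 2 genes differed by 0.02 and 0.10. Of 22 genes of cholesterol synthesis 1 was lower and 0 higher, under the background shares (3 calls without juvenile C, and 0 without juvenile A, juvenile B or neonatal D), with a median of -0.50, or 1.42 relative to the epithelial markers.

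Of 37 tested genes of xenobiotic metabolism and efflux, 20 were lower in neonates and 0 higher, with a median of -1.21, or 0.72 relative to the epithelial markers. GSTA2, a glutathione transferase, was at 44.3, 39.9 and 47.2 scaled CPM in juveniles and 0.265, 0.401 and 1.01 in neonates. All neonatal libraries were at or under the floor, so the gene was at least 28.8-fold lower against the highest neonatal floor (adjusted p = 0.000140 by edgeR). ABCB1, the drug exporter P-glycoprotein, was 6.92-fold lower, and CYP3A39, a drug-oxidizing cytochrome, 7.42-fold lower. GSTA2 and CYP3A39 belong to families of similar genes, and how the counting shared reads between copies is not given in the sources used here.

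**Figure D3:**
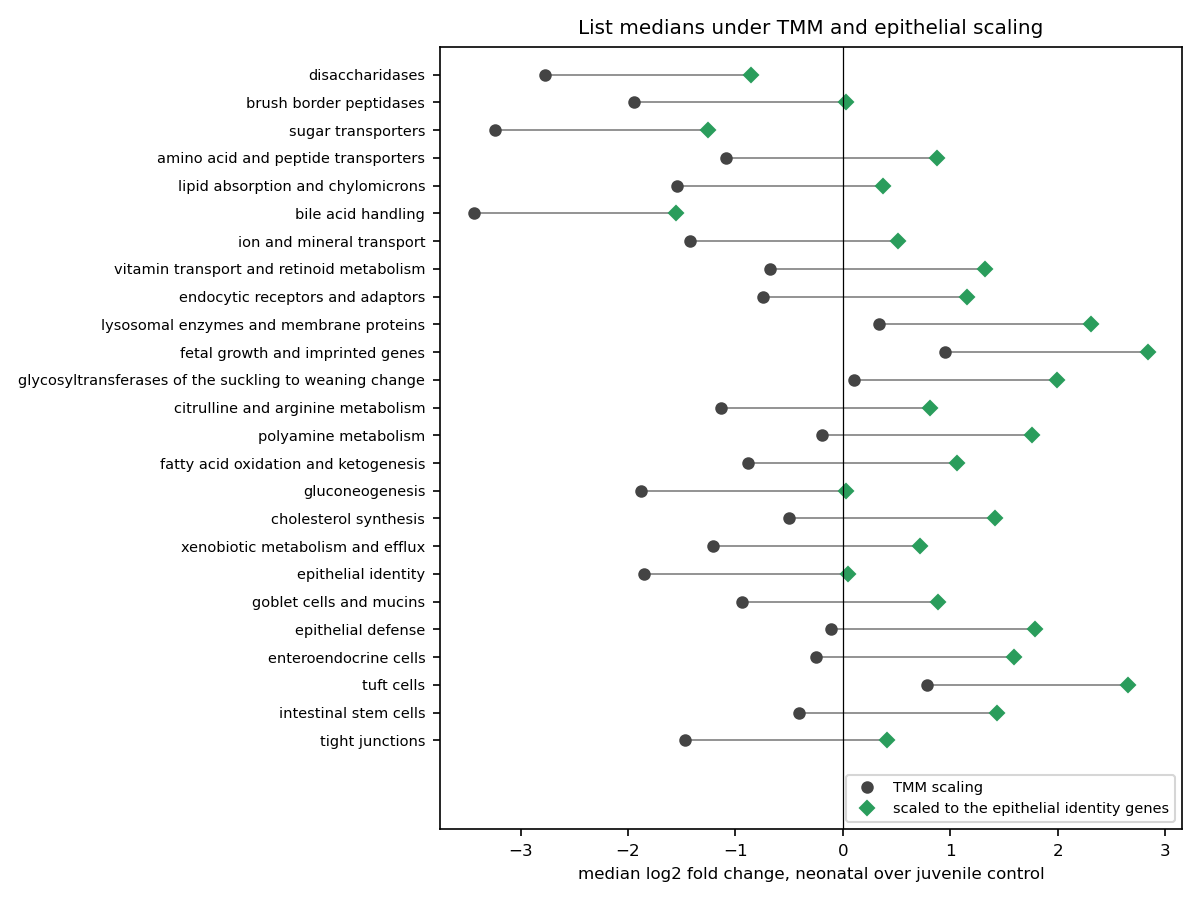
Median log2 fold change of each epithelial list under both scalings. The horizontal axis gives the median over the tested genes of a list for neonatal over juvenile control mucosa, circles stand for TMM scaling and diamonds for scaling to the epithelial identity genes. The medians of the disaccharidases, sugar transporters and bile acid genes stay under 0 (-0.85, -1.26 and -1.55), while those of the peptidases and most metabolic lists reach or pass 0.

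Several genes were far higher in neonatal mucosa, and some were close to absent from juvenile mucosa. MELTF (chr13:133094869-133122092), melanotransferrin, an iron-binding protein of the cell surface, was at 0.197, 0.130 and 0 scaled CPM in juvenile A, B and C and at 246, 153 and 229 in neonatal A, C and D. The juvenile libraries held no more than 2 counts each, and the level in neonates was at least 88.7-fold higher against the highest juvenile floor (adjusted p = 1.24e-05 by edgeR). CLIC6, an intracellular chloride channel, was at 0, 0.0649 and 0 against 11.6, 28.6 and 24.3, at least 9.11-fold higher. DIO1, which converts thyroid hormone to its active form, was at 0.688, 0.390 and 0 against 22.2, 17 and 12.2. MYO7A, an unconventional myosin, was 9.73-fold higher, ITIH4, an inter-alpha-trypsin inhibitor, 11.7-fold and MET, the receptor of hepatocyte growth factor, 7.06-fold. Each of these 6 genes was higher in every neonatal library than in every juvenile library. Genes named for a small p had to have no overlap between the ages, as 38.6% of all genes tested did.

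The machinery for taking up whole proteins showed some members higher and others lower. Of 15 endocytic receptors and adaptors, 2 were higher in neonates and 4 lower, with a median of -0.74, or 1.16 relative to the epithelial markers. LRP2, or megalin, a receptor for many proteins, was at 0.393, 1.43 and 0.786 scaled CPM in juveniles and 11.7, 5.08 and 8.10 in neonates (log2 fold change 3.18, SE 0.60, adjusted p = 0.00673). LRP2 had a log2 fold change of 4.15 without juvenile B and of 2.705 without juvenile A. Its adaptor DAB2 was 2.85-fold higher, at 178, 87.7 and 103 against 314, 384 and 350. CUBN, or cubilin, the partner of megalin, was 2.37-fold lower in neonates (adjusted p = 0.0449), a call that was lost without any one library other than juvenile C (adjusted p from 0.0834 to 0.185), and with RLE factors (0.0604), and relative to the epithelial markers its log2 difference of 0.70 did not pass (adjusted p = 0.12). FCGRT, the neonatal Fc receptor that carries IgG across epithelia, was lower as well, at 295, 232 and 149 against 74.3, 113 and 56.2 (adjusted p = 0.0155), a call lost without juvenile A (adjusted p = 0.0573) and relative to the epithelial markers its log2 difference was 0.43, which did not pass (adjusted p = 0.242). PIGR, which carries IgA and IgM into the lumen, was at 956, 664 and 800 in juveniles and 53.9, 129 and 79.0 in neonates, 9.25-fold lower (adjusted p = 0.000916), and remained lower relative to the epithelial markers at -1.37.

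Lysosomal genes as a list held few calls, with 3 of 37 higher, 1 lower and a median of 0.34. The share called was 10.8%, beside 19.5% of all genes. The list had 2 calls without juvenile A, juvenile B or neonatal C and 9 by DESeq2. The 3 higher genes were ARSB, an arylsulfatase that degrades glycosaminoglycans, and the proteases CTSH and LGMN, of which LGMN lost its call without any one library other than neonatal D (adjusted p from 0.0523 to 0.0989). ARSB was at 5.21, 7.27 and 5.50 scaled CPM in juveniles and 65.4, 29.4 and 36.0 in neonates (log2 fold change 2.86, SE 0.39, adjusted p = 0.00143). SMPDL3A, a phosphodiesterase related to acid sphingomyelinase, was 4.24-fold higher. LAMP1, the most abundant gene of the list, differed by -0.55, or 1.32 relative to the epithelial markers, and was not called under TMM scaling. Relative to the epithelial markers, 36 of the 37 genes were called higher, where 81.6% of all genes were, with a median of 2.31 beside 1.94 over all genes.

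Of 19 tested genes of fetal growth and imprinting, 4 were higher in neonates and 0 lower, which is 21.1% called beside 19.5% of all genes. The median was 0.95, and 2 were called without juvenile A or without neonatal A. The summed level of the list overlapped between the ages. H19 and MEG3 were not found under these names in the counts, and LIN28A, DLK1, AFP and IGFBP1 were below the filter. PEG10, an imprinted gene, was at 0.590, 3.18 and 1.57 scaled CPM in juveniles and 25.8, 26.6 and 8.61 in neonates (log2 fold change 3.47, SE 0.64, adjusted p = 0.00660). Its log2 fold change was 4.74 without juvenile B. LIN28B, a fetal regulator of small RNAs, had 1 count in juvenile B and 0 in the other juveniles, against 27, 7 and 1 in neonatal A, C and D, too few for a fold, and its call (adjusted p = 0.0146) was lost without juvenile A, juvenile B or neonatal A (adjusted p from 0.0515 to 0.0653). IGFBP3, a carrier of insulin-like growth factors, was 3.51-fold higher. IGF2 itself was at 18.6, 25.5 and 31.5 against 9.71, 34.3 and 12.7, with the ages overlapping. B3GALT5, a galactosyltransferase from the list of sugar-chain enzymes that change at weaning, was 9.64-fold lower, and in that list 2 of 26 genes were higher and 5 lower, with 2 calls left without both shallow libraries or without juvenile A, 3 without neonatal C and 4 without juvenile C.

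Tight junctions seal the space between epithelial cells. Of 21 tested genes, 11 were lower in neonates and 1 was higher, MYLK, the myosin kinase that is also a smooth muscle gene. The median was -1.47, or 0.41 relative to the epithelial markers, where 8 genes (of 21) were called higher and 0 lower, beside 81.6% and 1.06% of all genes. CLDN3, a sealing claudin, was at 211, 165 and 101 scaled CPM in juveniles and 24.0, 29.5 and 22.8 in neonates (log2 fold change -2.63, SE 0.31, adjusted p = 0.000908). TJP1, the scaffold ZO-1, was at 502, 462 and 500 against 401, 381 and 498, and its difference of -0.19, or 1.70 relative to the epithelial markers, was not called under TMM scaling (adjusted p = 0.643). TJP1 is also made by endothelium and other cell types.

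Fewer calls were made among genes of secretory cells and epithelial defense. Of 20 goblet cell genes 5 were lower and 0 higher, with a median of -0.94, or 0.89 relative to the epithelial markers, and 2 calls were left without both shallow libraries or without juvenile A, juvenile B or neonatal C. MUC2, the gel-forming mucin of goblet cells, was at 367, 286 and 981 scaled CPM in juveniles and 106, 231 and 336 in neonates and was not called (adjusted p = 0.141). Of 28 defense genes, whose median of -0.11 became 1.79 relative to the epithelial markers, 8 were lower and 2 higher, SAA3 and the protease inhibitor SLPI. SLPI was at 3.64, 2.79 and 3.93 against 40.9, 15.6 and 19.2 (log2 fold change 2.95, SE 0.45, adjusted p = 0.00254). REG3G, an antibacterial lectin, ranged from 9.87 to 384 in juveniles and from 8.83 to 307 in neonates, a spread far wider than any difference between the ages. Of 24 enteroendocrine genes 2 were lower and 1 higher, and the marker CHGA was not called. The serotonin transporter SLC6A4, which enterocytes use to clear serotonin, was at 100, 49.7 and 38.5 in juveniles and 1.94, 1.20 and 3.04 in neonates, 33.6-fold lower (log2 fold change -5.07, SE 0.49, adjusted p = 0.000452).

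Cell cycle genes were higher in neonates. Of 61 tested, 39 were called higher and 0 lower, with a median log2 fold change of 1.22. MKI67, the antigen of dividing cells, was at 379, 605 and 749 scaled CPM in juveniles and 1412, 1119 and 2524 in neonates (log2 fold change 1.54, SE 0.41, adjusted p = 0.0289). TOP2A, a topoisomerase of mitosis, was at 524, 731 and 712 against 1945, 1196 and 2009, and CDC6, which licenses DNA replication, at 13.7, 38.3 and 13.4 against 137, 42.3 and 72.4. BUB1B, a kinase of the spindle checkpoint, was 2.96-fold higher. The ages did not overlap for any of these 4 genes, as for 38.6% of all genes tested. Neonatal C was the lowest neonatal library for each of the 4. The number of calls depended on single libraries, with 3 left without juvenile A, 12 without juvenile B, 17 without neonatal A or without neonatal D, and 6 without both shallow libraries, while the median of the list stayed between 0.96 and 1.40 with single libraries left out. Without juvenile A the adjusted p was 0.118 for MKI67, 0.0982 for TOP2A, 0.11 for CDC6 and 0.0518 for BUB1B. MKI67, TOP2A and CDC6 each also lost the call without at least 1 other library, MKI67 and TOP2A without juvenile B (0.0821 and 0.0621), MKI67 and CDC6 without neonatal D (0.0773 and 0.0556), and CDC6 without juvenile C or neonatal A (0.0769 and 0.0901).

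Stem cell genes held few calls. Of 20 tested, 0 were higher and 4 lower, beside 7.03% and 12.5% of all genes, with a median of -0.41, or 1.44 relative to the epithelial markers. The list had 1 call without juvenile A, juvenile B, neonatal A or neonatal D, 2 without juvenile C or neonatal C and 2 with RLE factors. LGR5, the marker of crypt base stem cells, was at 9.04, 8.64 and 6.29 scaled CPM in juveniles and 16.1, 14.8 and 3.04 in neonates. OLFM4 was at 5934, 1725 and 2598 against 993, 1792 and 729, and both genes overlapped between the ages and were not called. For OLFM4 the adjusted p of 0.0575 passed the threshold by DESeq2 (0.0145), without a filter beyond a count above 0 (0.0392), in 1 fit of all 12 samples (0.0358) and without juvenile B (0.0484), each time lower in neonates. SMOC2 was called lower at -1.52 (adjusted p = 0.0247), or 0.27 relative to the epithelial markers, and lost the call without juvenile B, juvenile C, neonatal A or neonatal D (adjusted p from 0.05 to 0.0666).

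B cell markers and the cell cycle list shared their lowest library at each age. Summed over the 26 tested genes, B cell markers were at 426, 1387 and 916 scaled CPM in juvenile A, B and C and at 4339, 2159 and 3848 in neonatal A, C and D, with PAX5 the most abundant. The cell cycle sum was 4455, 5905 and 6202 in juveniles and 14623, 9016 and 16068 in neonates. These lowest libraries were neonatal C and juvenile A, while juvenile B and C stood in a different order in each sum. The part of B cells in the cell cycle difference was not tested.

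Of the 26 B cell genes, 12 were higher in neonates and 0 lower, with a median of 2.07. PAX5, which fixes B cell identity, was at 52.5, 352 and 204 scaled CPM in juveniles and 1514, 525 and 1337 in neonates (log2 fold change 2.47, SE 0.68, adjusted p = 0.0365). MS4A1, or CD20, was at 13.7, 136 and 57.4 against 463, 283 and 403, and CD79A, a part of the antigen receptor, at 3.34, 15.6 and 8.65 against 55.0, 41.8 and 65.8. CXCL13, the chemokine that draws B cells into follicles, was 12.8-fold higher (log2 fold change 3.67, SE 0.61, adjusted p = 0.00512), and FCER2, the low-affinity IgE receptor of B cells, 14.9-fold. The log2 fold change of FCER2 was 3.89, and 4.68 without juvenile B. BCL6, a gene of the germinal center named after its value was seen, was also called higher. The number of calls depended on which library was left out, with 14 without juvenile A or without juvenile B, 8 without neonatal C, 5 without juvenile C, 22 by DESeq2, 4 without neonatal A or without neonatal D, and 1 without both shallow libraries, while its median stayed between 1.57 and 2.57 with single libraries left out. PAX5 and MS4A1 lost their calls without juvenile C, neonatal A or neonatal D, and MS4A1 also without neonatal C (adjusted p from 0.0773 to 0.0952 for PAX5 and from 0.0913 to 0.114 for MS4A1). Both also missed the threshold without a filter beyond a count above 0 (0.061 for PAX5 and 0.0979 for MS4A1). How much lymphoid tissue each scraping held was not measured.

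Among plasma cell genes 2 of 18 were higher and 1 lower, which is 16.7% called beside 19.5% of all genes. The immunoglobulin genes IGHM, IGHA and IGLL5 were not found under these names in the counts. The list had 1 call without juvenile A, juvenile C, neonatal A or neonatal D, and 5 without juvenile B. JCHAIN, the chain that joins secreted IgA and IgM, was at 40.0, 204 and 108 scaled CPM in juveniles and 234, 327 and 183 in neonates and was not called (adjusted p = 0.170), though without juvenile B its log2 fold change of 1.09 became 1.74 (adjusted p = 0.0499).

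T cell and cytotoxic genes were lower in neonatal tissue. Of 35 T cell genes 15 were lower and 0 higher, with a median of -1.04. Of 23 genes of cytotoxic lymphocytes 15 were lower and 0 higher, with a median of -2.65. Relative to the epithelial markers, 14 T cell genes were higher and 4 lower, with a median of 0.80. For the cytotoxic list these were 5 and 8, with a median of -0.80. The direction of the T cell median thus depended on the scaling. Summed levels of the cytotoxic list were 991, 975 and 1231 scaled CPM in juveniles and 178, 277 and 234 in neonates. GZMA (chr16:34262495-34272084), which encodes granzyme A, was at 273, 218 and 194 in juveniles and 3.71, 6.28 and 2.53 in neonates, 51.8-fold lower (log2 fold change -5.70, SE 0.38, adjusted p = 0.000140). GZMB, granzyme B, was 53.3-fold lower at 78.0, 64.4 and 98.3 against 0.530, 2.40 and 2.03, and the chemokine CCL5 26.1-fold lower at 222, 236 and 391 against 6.88, 11.8 and 15.2. For each of these 3 genes the ages were far apart. Genes of largest change in a list were named only where the ages did not overlap.

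Markers of the lymphocytes that live in the epithelium were part of this. CD8A was at 40.9, 44.9 and 30.7 scaled CPM in juveniles and 1.85, 4.94 and 2.53 in neonates (log2 fold change -3.62, SE 0.41, adjusted p = 0.000863). ITGAE, or CD103, the integrin that binds epithelial cadherin, was 7.76-fold lower and CD96 12.4-fold lower. CD3E, a subunit of the CD3 complex that accompanies the T cell receptor, was at 401, 309 and 167 against 38.0, 95.6 and 18.7 (adjusted p = 0.0174 by edgeR). Its call was lost without juvenile A or without neonatal A (adjusted p = 0.0577 and 0.0651). The T cell list had 13 to 19 calls and the cytotoxic list 14 to 15 when single libraries were left out, and 12 and 13 without both shallow libraries, against 15 in each with all of them. CCR9 and its ligand CCL25, which bring T cells to the small intestine and of which CCL25 was named after its value was seen, were both called lower.

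**Figure D4:**
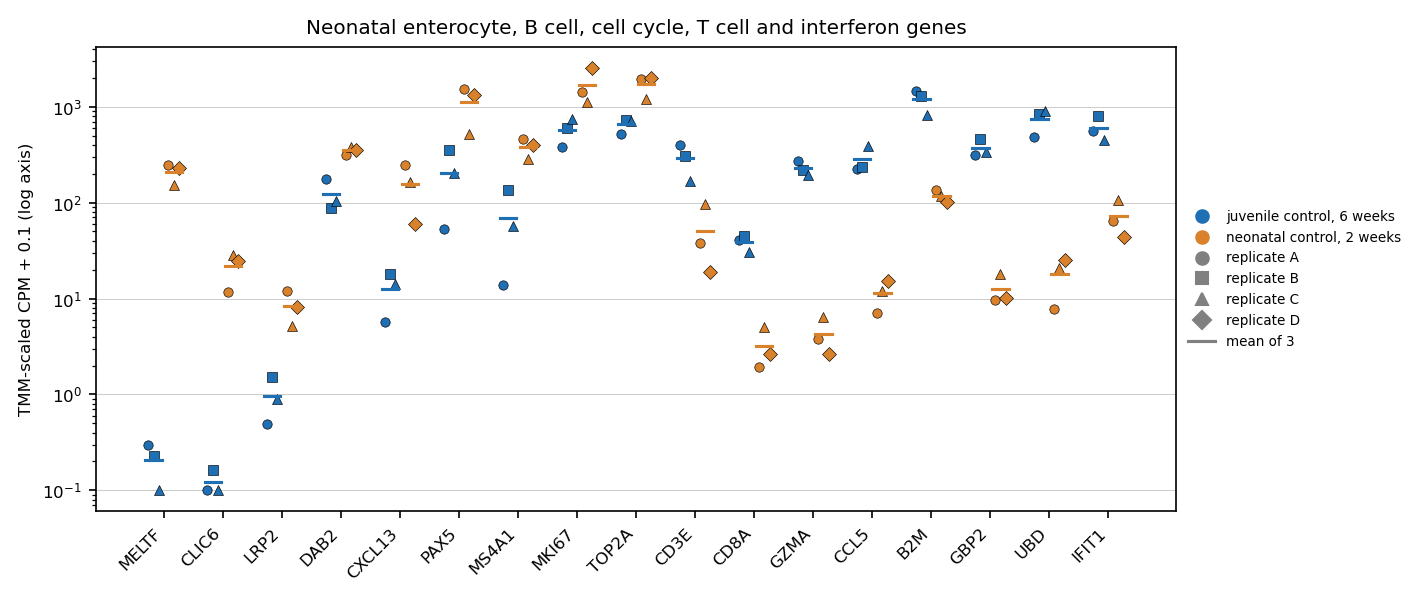
Levels of MELTF, CLIC6, LRP2 and DAB2 and of immune and cell cycle genes in each control library. The plot title calls the first of these neonatal enterocyte genes, but which cells made them was not tested. The vertical axis gives TMM-scaled CPM plus 0.1 on a log10 axis, each point is 1 library and horizontal bars mark group means. GZMA lies between 194 and 273 in juveniles and between 2.53 and 6.28 in neonates, while MS4A1 lies higher in neonates, from 283 to 463, than in juveniles, from 13.7 to 136.

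Genes that interferons induce were lower in neonatal tissue almost throughout under TMM scaling. Of 33 tested genes of the type I interferon response, 28 were lower and 0 higher, with a median of -1.90. Of 29 of the interferon-gamma response, 22 were lower and 1 was higher, ICAM1, with a median of -2.26. Of 18 genes of antigen presentation by MHC class I, 12 were lower and 0 higher with a median of -1.43, and the list shares genes such as TAP1 with the interferon-gamma list. Of 14 genes of MHC class II, 1 was called, higher (0 without juvenile A, juvenile B, neonatal A or neonatal C), and CD74, the most abundant, was at 379, 713 and 755 scaled CPM against 450, 1228 and 810. The type I list had 20 to 28 calls and the interferon-gamma list 19 to 21 when single libraries were left out. Relative to the epithelial markers, 4 genes of the type I list were higher and 4 lower, with a median of -0.06. For the interferon-gamma list these were 9 and 9 (median -0.37), and for MHC class I 4 and 4 (median 0.47). Under that scaling 81.6% of all genes were called higher and 1.06% lower, with a median of 1.94. The most abundant gene of the type I list was SAMD9, which was 2.66-fold lower in neonates.

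The promoters of 4 interferon-regulated genes are printed because such promoters often share a known element, and that of SI is printed beside them. Sequences come from the RefSeq genome Sscrofa11.1 and run from 250 bases before to 50 bases after the annotated start of the gene, 5′ to 3′ on the strand of the gene. Capitals mark matches, on either strand, to the interferon-stimulated response element, searched as GAAA followed by any 2 bases and GAAA again (which reads as TTTC, any 2 bases and TTTC where it lies on the other strand), and in SI matches to TTTATG, a site of the intestinal factor CDX2. The windows are chr1:126843994-126844293 for B2M, chr7:25071940-25072239 for TAP1, chr4:127408680-127408979 for GBP2 and chr13:104379509-104379808 for SI, all on the minus strand, and chr14:101237153-101237452 for IFIT1 on the plus strand.
B2M: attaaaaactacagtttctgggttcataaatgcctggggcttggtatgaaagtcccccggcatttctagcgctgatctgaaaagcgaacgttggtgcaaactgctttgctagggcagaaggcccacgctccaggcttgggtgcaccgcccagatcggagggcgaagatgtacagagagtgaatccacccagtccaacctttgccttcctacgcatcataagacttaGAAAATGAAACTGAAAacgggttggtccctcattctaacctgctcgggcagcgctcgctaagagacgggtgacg
TAP1: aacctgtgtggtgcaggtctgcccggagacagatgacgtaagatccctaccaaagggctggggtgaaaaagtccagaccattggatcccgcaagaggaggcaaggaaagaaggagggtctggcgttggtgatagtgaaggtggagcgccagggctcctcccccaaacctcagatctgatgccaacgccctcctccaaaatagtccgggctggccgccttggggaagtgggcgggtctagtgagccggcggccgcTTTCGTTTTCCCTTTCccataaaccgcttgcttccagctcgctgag
GBP2: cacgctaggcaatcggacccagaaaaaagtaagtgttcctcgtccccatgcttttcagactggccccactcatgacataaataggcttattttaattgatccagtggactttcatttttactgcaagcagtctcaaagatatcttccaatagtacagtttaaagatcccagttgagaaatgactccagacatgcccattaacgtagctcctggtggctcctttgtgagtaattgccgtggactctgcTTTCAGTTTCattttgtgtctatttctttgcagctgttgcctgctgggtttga
IFIT1: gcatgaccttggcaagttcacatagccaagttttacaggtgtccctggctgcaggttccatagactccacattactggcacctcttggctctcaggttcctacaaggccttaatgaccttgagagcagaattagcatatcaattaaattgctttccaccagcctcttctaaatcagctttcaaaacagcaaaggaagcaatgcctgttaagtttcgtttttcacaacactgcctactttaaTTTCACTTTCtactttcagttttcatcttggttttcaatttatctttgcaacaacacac
SI: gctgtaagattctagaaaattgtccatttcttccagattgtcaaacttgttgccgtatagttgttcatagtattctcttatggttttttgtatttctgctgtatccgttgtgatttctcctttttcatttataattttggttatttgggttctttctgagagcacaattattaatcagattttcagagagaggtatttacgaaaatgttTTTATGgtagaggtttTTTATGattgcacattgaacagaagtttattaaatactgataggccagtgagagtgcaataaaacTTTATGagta

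In B2M the element occurs at 2 overlapping places, from base -24 and base -18 counted from the start, and in TAP1 also at 2, from base 5 and base 11. GBP2 and IFIT1 hold 1 each, from base -3 and base -9. The element was found in 18 of 48 promoters (37.5%) of the interferon-list genes called lower, in 20 of 60 (33.3%) of all interferon-list genes tested, and in 698 of 19531 (3.57%) of all promoters of this length. These lists were made of genes known to answer to interferons, so the share describes the lists and not the age difference. None of the 29 promoters of the digestion and sugar lists held it, while TTTATG was found in 4 of those 29 (13.8%), in 10 of the 60 interferon-list promoters (16.7%) and in 1760 of 19531 (9.01%) of all promoters. A match is a run of letters and says nothing on whether a factor binds there.

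B2M (chr1:126837721-126844043), the common light chain of MHC class I, was at 1462, 1307 and 827 scaled CPM in juveniles and 135, 117 and 101 in neonates, 10.1-fold lower (log2 fold change -3.33, SE 0.33, adjusted p = 0.000470). TAP1, a subunit of the peptide pump that loads MHC class I, was at 534, 475 and 307 against 46.5, 53.3 and 29.9, 10.0-fold lower. SLA-2, a heavy chain of pig MHC class I whose reads may be shared with its close paralogs, was 7.27-fold lower. These 3 genes of peptide presentation were each at least 7.27-fold lower.

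GBP2 (chr4:127387222-127408729), a guanylate-binding protein, was at 311, 465 and 337 scaled CPM in juveniles and 9.53, 18.0 and 10.1 in neonates, 29.2-fold lower (log2 fold change -4.87, SE 0.37, adjusted p = 0.000233). UBD, a ubiquitin-like modifier induced by interferon-gamma, was 43.0-fold lower, at 488, 837 and 900 against 7.59, 20.8 and 24.8. Among genes of the antiviral response, IFIT1 was at 557, 800 and 451 against 64.8, 106 and 43.6 (log2 fold change -3.06, SE 0.39, adjusted p = 0.00110) and OASL at 56.9, 77.9 and 29.1 against 1.68, 1.20 and 0. ISG15 was 8.02-fold lower, with an adjusted p of 0.0157 that rose to 0.0595 without neonatal A. BATF2, a transcription factor that interferon-gamma induces, was 18.5-fold lower. PARP15, an ADP-ribosyltransferase, was 1 of the 10 genes named for the smallest p among those lower in neonates, at 2015, 2166 and 1151 against 68.5, 40.9 and 77.0.

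Lists of innate immune cells held few calls by edgeR. Of 35 genes of macrophages and dendritic cells 2 were higher and 0 lower, against 9 calls by DESeq2, 11 in 1 fit of all 12 samples, 0 without juvenile A and 1 without any one neonatal library. CD163, a macrophage scavenger receptor, was at 13.4, 16.7 and 40.1 scaled CPM in juveniles and 21.3, 64.9 and 67.4 in neonates and was not called, except without juvenile C (adjusted p = 0.0423). Of 11 genes of granulocytes and mast cells, 2 were higher, IL5RA and ALOX15, and 1 without juvenile A, juvenile C, neonatal A or neonatal C. IL1A, an alarm cytokine, was at 0.197, 0.455 and 0.786 in juveniles and 1.94, 5.08 and 3.04 in neonates (adjusted p = 0.0156, but 0.0747 without juvenile A and 0.0673 without neonatal C), low levels in all 6 libraries. Of 42 cytokines, chemokines and receptors tested, 8 were lower and 4 higher, close to the background shares, and 7 were called without juvenile A.

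Matrix genes were higher in neonates, and most of all in 1 library. Of 32 tested genes of fibroblasts and matrix, 17 were higher and 0 lower, with a median of 1.66. COL3A1, a fibrillar collagen, was at 146, 318 and 271 scaled CPM in juveniles and 641, 1797 and 635 in neonates (log2 fold change 2.06, SE 0.48, adjusted p = 0.0171), and COL5A2 at 47.0, 77.3 and 55.8 against 218, 581 and 242. The summed list was at 1709, 2962 and 2468 in juveniles and 4951, 11254 and 4409 in neonates. Neonatal C was thus more than 2 times as high as the other neonatal libraries, though these too were above every juvenile library. Without neonatal C the list had 6 calls and a median of 0.97, and without juvenile A it had 4 calls, against 26 by DESeq2. The adjusted p of COL3A1 was then 0.0508 and 0.0623.

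The other cells of the wall showed few calls by edgeR. Of 19 smooth muscle genes 2 were higher, with a median of 1.06, and ACTA2, smooth muscle actin, was at 66.0, 127 and 105 scaled CPM against 159, 332 and 136 and was not called (adjusted p = 0.0794, but 0.0284 by DESeq2). No smooth muscle gene was called without juvenile A, juvenile B, neonatal A or neonatal C, and 4 were by DESeq2. Of 23 endothelial genes 3 were higher, among them PECAM1 at 54.4, 109 and 73.1 against 126, 294 and 149 (adjusted p = 0.0425), and neonatal C was again the highest library. The endothelial list had 0 calls without juvenile A or neonatal C and 1 without juvenile B. PECAM1 lost its call without juvenile A, juvenile C or neonatal C (adjusted p from 0.0891 to 0.157). The defining markers of enteric glia were too low to compare: S100B had 0 counts in every library and GFAP was at 0.197, 0.390 and 0 against 0.706, 0.401 and 0. Of the 12 glial genes that passed the filter, 2 were higher in neonates and 1 lower, ERBB3, which epithelium also makes, with a median of 1.30, and 1 was called without juvenile A, juvenile C, neonatal A or neonatal C. Of 14 genes of enteric neurons 1 was higher, RET, against 3 calls by DESeq2, 2 without neonatal D and 0 without any one library but juvenile B and neonatal D.

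**Figure D5:**
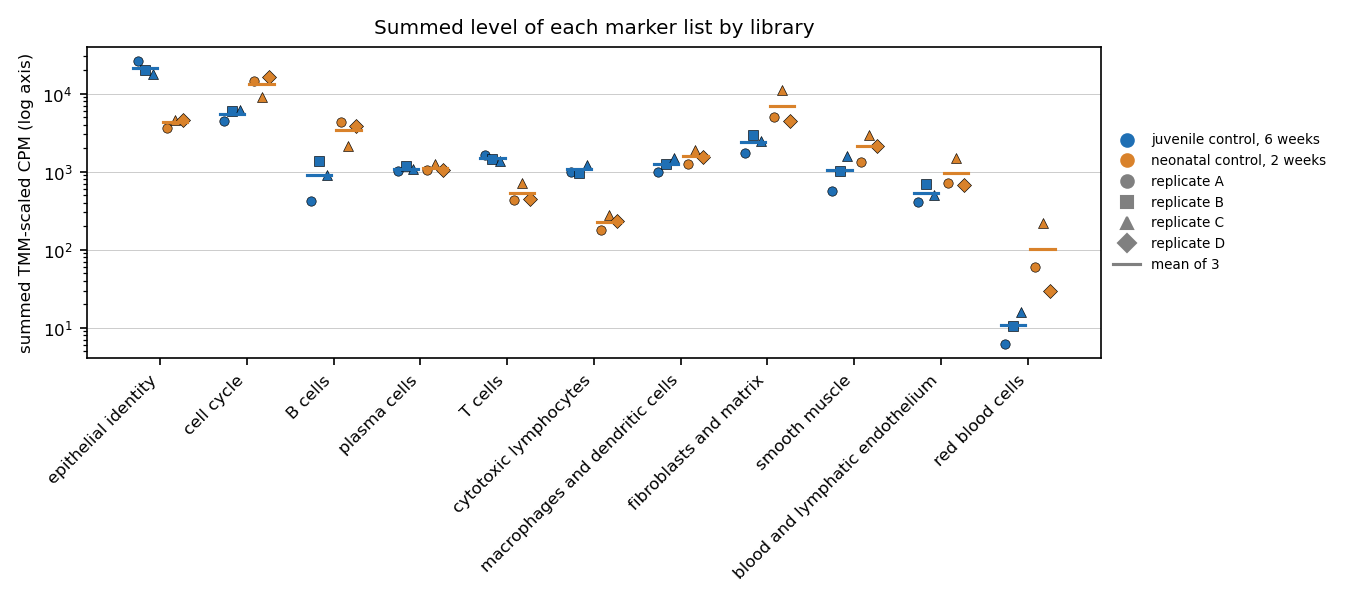
Summed levels of marker lists in each control library. The vertical axis gives the sum of TMM-scaled CPM over the tested genes of each list on a log10 axis, each point is 1 library with its replicate given by the marker shape, and horizontal bars mark group means. The epithelial identity sum is from 17609 to 26020 in juveniles and from 3666 to 4612 in neonates, and the B cell, cell cycle, matrix and red blood cell sums lie higher in neonates.

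Genes of red blood cells were higher in neonates, with 4 of 7 called and 0 lower. HBB, the beta chain of hemoglobin, was at 0.983, 4.22 and 2.36 scaled CPM in juveniles and 44.5, 155 and 13.7 in neonates (log2 fold change 4.78, SE 1.02, adjusted p = 0.0204), and ALAS2, the first enzyme of heme synthesis in red cells, at 0.295, 0.844 and 1.57 against 9.53, 39.8 and 2.03. Neonatal C was highest in both. Without juvenile B the list had 1 call and without neonatal C 2, and without juvenile A it had 0 (adjusted p = 0.0862 for HBB and 0.12 for ALAS2), and ALAS2 also lost its call without juvenile B (0.0902). HBB was not called without a filter beyond a count above 0 (0.0588). The list had 2 calls by DESeq2 and 2 with edgeR's filterByExpr filter. The share of counts on mitochondrial genes was 1.24%, 1.75% and 2.58% in juveniles and 0.878%, 3.72% and 2.41% in neonates, and of the 13 mitochondrial genes 0 were called. Immediate early and stress genes, which rise when tissue is handled or starved of oxygen, were near the background, with 2 of 33 higher and 5 lower, and had 3 calls without juvenile A and 4 without juvenile B or neonatal C. KLF4, which also marks differentiated epithelium, was called lower, at 368, 295 and 282 against 56.7, 41.5 and 119.

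Some clock and glucocorticoid genes were also called. Of 19 genes of the circadian clock, 8 were lower in neonates and 1 was higher, BHLHE41, with a median of -0.75. NPAS2, a partner of the clock activator, was at 71.6, 42.1 and 27.5 scaled CPM in juveniles and 4.32, 6.14 and 2.03 in neonates (log2 fold change -3.40, SE 0.45, adjusted p = 0.00124), and the repressor NR1D1 at 40.3, 39.2 and 53.5 against 5.03, 14.4 and 20.3. The call for NR1D1 (adjusted p = 0.0245) was lost without juvenile A, juvenile C or neonatal C (adjusted p from 0.0532 to 0.0709). The hour of sampling is not given in the sources used here. Of 14 glucocorticoid-responsive genes 5 were lower and 0 higher, with SGK1, an activator of sodium uptake, at 813, 776 and 372 against 283, 213 and 267 (adjusted p = 0.0211), a call lost without juvenile A, juvenile B or neonatal C (adjusted p from 0.0744 to 0.0786). With single libraries left out the clock list had 5 to 7 calls, against 9, with 5 without juvenile A, juvenile C or neonatal C. The glucocorticoid list had 1 call without juvenile B, 2 without juvenile A or neonatal C and 3 without neonatal A.

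The same ages were compared in the ischemic loops, which lay beside the control loops. There 4718 genes were called between the ages (33.2%), with 2356 higher in neonates (16.6%) and 2362 lower (16.6%). Of the genes called in control mucosa, 647 of 998 higher (64.8%) and 1271 of 1776 lower (71.6%) were also called in the same direction in ischemic mucosa, which is 27.5% and 53.8% of the genes called there. The control and ischemic loops may come from the same pigs, so these are not independent. For SI the log2 fold change between the ages was -3.84 in control and -3.29 in ischemic mucosa, for MGAM -6.02 and -4.58, for GZMA -5.70 and -4.96, and for GBP2 -4.87 and -4.11. LCT, which was not called in control mucosa, was called in ischemic mucosa with a smaller log2 fold change, 1.65 beside 1.87, where the juvenile libraries were at 14.9, 12.7 and 18.1 scaled CPM and the neonatal at 38.9, 40.2 and 59.8.

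Of the 61 cell cycle genes 59 were higher in neonates in ischemic mucosa, with a median of 1.42 beside 1.22 in control, and of the 26 B cell genes 24, with a median of 1.94 beside 2.07. Of the matrix genes 0 were higher and 3 lower in ischemic mucosa, with a median of 0.07 beside 1.66, and COL3A1 was at 0.24 beside 2.06. Of the smooth muscle genes 0 were higher and 4 lower, with a median of -0.70 beside 1.06. Whether the 2 age differences themselves differed was tested in 1 fit of all 12 samples. By edgeR 0 of 14191 genes passed, with 1443 at an unadjusted p under 0.05 (10.2%), and by DESeq2 92 passed. With the replicate letter within each age as a block, which treats same-lettered loops as 1 pig though the labels do not say so, edgeR again called 0, with 1356 at an unadjusted p under 0.05 (9.55%) and a smallest adjusted p of 0.158.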

How the data were processed

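RNA from jejunal mucosal scrapings was sequenced in 12 samples, of which the 6 control samples are compared here. The authors prepared stranded total RNA libraries, aligned single-end reads to Sscrofa11.1 and deposited the counts of reads on each gene, without normalization. The aligner, the counting program and its strand setting are not given in the sources used here. The submitters' processing notes name DESeq2. Tables of the authors' own comparisons, which hold log2 fold changes and p-values, were not used. Reads that fell on no gene (26.6% to 45.9% of a control library) were left out.

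Groups and replicate letters were taken from the sample labels. For neonates, titles and descriptions differ in 1 letter, and the descriptions were used. Genes above 1 CPM in 2 or more of the 12 samples were fitted in the 6 control samples with edgeR 4.0.16 in R 4.3.3 (TMM factors of 0.810 to 1.15, robust quasi-likelihood test). The Benjamini-Hochberg adjusted p threshold was 0.05. Standard errors are the log2 fold change divided by the square root of the F statistic. The fits were first tested on simulated counts. DESeq2 1.42.0, RLE factors, other filters, 1 fit of 12 samples, a replicate block and leaving out libraries were alternatives. Scaling to epithelial identity genes was added after seeing the data.

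The genes and the 47 lists, which were written by hand, were chosen with earlier results of these data known. Genes named in the text were those set out beforehand for their function, the 10 with the smallest p in each direction, and for each list up to 4 called genes with the largest change and its most abundant member. The smallest-p genes and the genes of largest change had to have no overlap between the control groups. Their separation is therefore a condition of naming them. The smallest-p genes also had to be called and to have a symbol other than an Ensembl or LOC identifier. Other genes named as members of a list were chosen after their values were seen. Symbols were matched for 124 of the 4727 genes that had only an Ensembl identifier. Coordinates and promoters come from RefSeq.

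Same-lettered samples of the 2 ages are different pigs. Their deviations correlated at 0.461 for A and 0.00945 for C, so the letters were not taken to pair them. Results for some genes are not reported here.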

Additional observations from a re-analysis of the deposited data

Results flagged for a closer look

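For 3 named genes the difference between the ages was not the same in control and in ischemic mucosa by DESeq2's test of that difference, fitted to all 12 samples. IGFBP3 differed between the ages by 1.81 on the log2 scale in control and -0.56 in ischemic mucosa, an interaction of -2.45 (adjusted p = 0.0444 by DESeq2). ANGPTL4 differed by -1.79 and 0.35, an interaction of 2.08 (adjusted p = 0.00152 by DESeq2). LYVE1, a marker of lymphatic endothelium, differed by 1.48 and -1.14, an interaction of -2.65 (adjusted p = 0.0125 by DESeq2). By edgeR the adjusted p of each of the 3 was 0.270, so none passed there, nor with the replicate letter within age as a block (0.273, 0.158 and 0.158 for IGFBP3, ANGPTL4 and LYVE1). The control samples of LYVE1 were at 7.47, 9.22 and 11.8 scaled CPM in juveniles and 28.2, 33.7 and 13.7 in neonates. Its call in control mucosa (adjusted p = 0.0263 by edgeR) was lost without juvenile A (0.105), juvenile B (0.0813), neonatal A (0.0624) or neonatal C (0.0893).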

How the results depend on the processing

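The number of genes called in control mucosa was 3272 by DESeq2, 2779 with RLE factors, 2881 without a filter beyond a count above 0, 2769 with filterByExpr and 3936 in 1 fit of all 12 samples, against 2774. Leaving out single libraries gave 1232 to 2295 calls, with 261 to 754 higher in neonates and 971 to 1615 lower. Leaving out juvenile C and neonatal D together gave 1579, with 365 higher. At an adjusted p under 0.01 there were 925, with 143 higher and 782 lower. The number called higher was 1511 by DESeq2, 1627 in 1 fit of 12 samples and 1774 with the replicate letter as a block, where the total was 3915. That fit left juvenile B and neonatal D alone in their blocks, so its age effect came from 4 libraries with 1 residual degree of freedom. It called LCT at 5.59, MUC2, JCHAIN, OLFM4 and ACTA2 and not CUBN, PAX5 or MS4A1, and gave 12 calls for goblet, 12 for endothelial, 11 for macrophage and dendritic, 10 for smooth muscle and 8 for tuft cell genes. Higher calls were 36.0% of all calls with TMM, 46.2% with DESeq2, 44.1% with RLE factors and 45.3% with the block, and DESeq2 and RLE moved the median of all genes to 0.12 and 0.12. In ischemic mucosa single libraries left out gave 3202 to 4949 calls, 1563 to 2431 higher and 1562 to 2518 lower, and the block gave 5046. For the difference between the age effects DESeq2 called 92 genes and edgeR 0, also with the replicate letter within age as a block, a fit added after seeing the data. Control and ischemic libraries of 1 letter and age had deviations that correlated at -0.208 to 0.579 over 6 pairs. With 3 libraries in each group this cannot show whether they came from 1 pig, and the letters entered only the block fits. Of 126 named genes, 106 were called, all 106 had the same direction in every alternative fixed at the start, and 80 passed in all of these. 101 passed in those that dropped no library. The added scaling to epithelial identity genes gave 11731 calls, 11580 higher and 151 lower. Under it the list medians turned to 0.032 for brush border peptidases, 0.88 for amino acid transporters, 0.37 for lipid absorption, 0.51 for ion transport, 1.32 for vitamin transport, 1.16 for endocytic receptors, 0.82 for citrulline metabolism, 1.07 for fatty acid oxidation, 0.030 for gluconeogenesis, 0.72 for xenobiotic metabolism, 0.046 for epithelial identity, 0.89 for goblet cells, 1.79 for epithelial defense, 1.44 for stem cells, 0.41 for tight junctions, 1.60 for enteroendocrine cells, 1.76 for polyamine metabolism and 1.42 for cholesterol synthesis. Its log2 fold changes turned to 0.21 for MGAM2, 0.25 for TMPRSS15, 0.59 for APOB, 0.36 for APOA4, 0.70 for CUBN, 0.43 for FCGRT, 1.32 for LAMP1, 1.40 for IGF2, 0.67 for CPS1, 0.49 for OAT, 0.023 for PPARA, 0.10 for ANGPTL4, 0.18 for EPCAM, 1.70 for TJP1, 0.48 for MUC2, 1.15 for REG3G, 0.36 for OLFM4 and 0.27 for SMOC2. Outside the epithelial lists, the medians turned to 0.80 for T cells, 0.47 for MHC class I and 1.16 for clock genes. They turned to 1.29 for glucocorticoid-responsive genes and 1.68 for immediate early and stress genes. By construction this scaling moves every gene up in neonates by the drop of the epithelial markers. IGF2 turned to 0.021 without both shallow libraries, CHGA to -0.51 with the block, and with single libraries left out REG3G ranged from -2.71 to 0.025, CHGA from -0.39 to 1.27, and the medians of the glycosyltransferase and immediate early lists from -0.18 to 0.27 and from -0.39 to 0.016. The causes of the other changes were not tested. At the depth of juvenile C, 3 counts were 2.01 CPM, so low genes could not be compared in it.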

Other observations

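Values are given for 5 genes that were called in both tissues in opposite directions. They were chosen after their values were seen, and edgeR's test of the difference gave an adjusted p of 0.270 for each. PTGS2, the inducible cyclooxygenase, was higher in neonates in control mucosa by 1.95 on the log2 scale and lower in ischemic mucosa by -1.21. SLITRK6, a neuronal membrane protein, had 1.40 and -1.40, FBN2, a fibrillin of elastic fibers, 1.25 and -1.22, MMP3, a matrix protease, 1.34 and -1.18, and LYVE1 1.48 and -1.14, of which the call in control mucosa was lost without any one of 4 libraries (juvenile A or B, neonatal A or C).

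Other lists of the epithelium held few calls or both directions. Of 19 genes of vitamin transport and retinoid metabolism 6 were lower in neonates and 3 higher, the retinoid genes ALDH1A2, STRA6 and DHRS9, and the median was -0.68 on the log2 scale. In this list 4 genes were called without juvenile A and 5 without neonatal C. Of 18 tuft cell genes 3 were higher and 0 lower, among them DCLK1, with a median of 0.78, but 0 without juvenile A or without neonatal A, 1 without neonatal C and 5 by DESeq2. Of 11 genes of polyamine metabolism 1 was higher and 1 lower, and 0 were called without juvenile A and 1 without neonatal C.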
